A study of Mus musculus with 12 samples.

Results

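Antioxidant defence in the heart was followed through 10 genes, Hmox1, Nqo1, Gclc, Gclm, Txnrd1, Sod1, Sod2, Cat, Prdx1 and Gpx1, chosen by name from the 33641 genes listed. Each was found once in every sample, and all 10 passed the filter on low values that left 12526 genes to test. Messenger RNA came from the left ventricle (LV) and right ventricle (RV) of humanized mice, in which the mouse phospholamban coding sequence had been replaced by the human one. Phospholamban (PLN) restrains SERCA2a, the pump that returns calcium to the sarcoplasmic reticulum, and R14del is an inherited deletion of 1 amino acid that is linked to ventricular arrhythmia. The 4 groups were LV WT-PLN, RV WT-PLN, LV R14del-PLN and RV R14del-PLN, with 3 samples each. All mice were 12 to 14 weeks old and untreated as far as the labels say, with C57BL/6J given as the strain. The study's methods describe a hybrid founder line, heterozygous R14del-PLN mice carrying 1 human wild-type and 1 human mutant allele, and male animals. Both genotypes therefore carry the knock-in, and there was no group with the mouse protein. The sample titles call the mutant samples KO, although the genotype label is R14del-PLN.

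These genes form the cell's chemical defence against superoxide, hydrogen peroxide and reactive quinones. Superoxide dismutases turn superoxide into hydrogen peroxide, which catalase, glutathione peroxidases and peroxiredoxins then remove. Glutathione and thioredoxin supply the electrons for the glutathione peroxidases and peroxiredoxins, and haem oxygenase breaks down free haem. Many of these genes are switched on together by the transcription factor NRF2, which is held back by KEAP1 and binds DNA with a small MAF protein at the antioxidant response element (ARE). Ventricular muscle is rich in mitochondria, a main source of superoxide in the heart.

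The values were deposited in TPM, a length-corrected share of all transcripts in a sample scaled to a fixed total, so levels of different genes can be compared but sequencing depth is unknown. Some samples stood apart. Both WT-PLN samples numbered 1 held 0.0159 to 0.191 TPM of 4 Y-linked genes (Uty, Kdm5d, Ddx3y and Eif2s3y), and the other 10 samples 3.03 to 30.6 TPM, although the methods describe male mice. The atrial light chain Myl7 was above 100 TPM in LV WT-PLN 3, RV WT-PLN 2 and RV R14del-PLN 2. RV R14del-PLN 3 carried another sequencing run in its file label than the other samples. Ventricular markers were abundant in all samples, with a summed level of 32193 to 49096 TPM over 7 genes. Mitochondrially encoded genes took 37.3% of the transcripts in LV R14del-PLN 3 and 44.0% to 54.5% in the other samples. Where leaving out the WT-PLN samples numbered 1 or the Myl7-rich samples changed a call among the 10 genes or turned a difference between genotypes or ventricles, the value without them is given.

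The ARE is the sequence that ties the set to NRF2, so the letters around it are shown for the 4 genes that held them near their start. Promoters of 250 bases before to 50 after a transcription start were taken from RefSeq (GRCm38.p6) and were found for 8 of the 10 genes, as 10 windows. The core TGACNNNGC, searched on both strands, was present in Gclm, Prdx1, Sod1 and Txnrd1, against 12.4% of 32851 mouse promoters of the same length. Each line gives the gene's own strand from 5′ to 3′, with the 9 matching letters in capitals. All 4 matches read on the opposite strand, so the core appears as its reverse complement.
Gclm, chr3:122245403-122245451, plus strand: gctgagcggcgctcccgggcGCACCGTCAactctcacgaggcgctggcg
Prdx1, chr4:116685446-116685494, plus strand: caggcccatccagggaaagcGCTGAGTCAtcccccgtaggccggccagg
Txnrd1, chr10:82859094-82859142, plus strand: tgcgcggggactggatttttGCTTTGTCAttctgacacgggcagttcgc
Sod1, chr16:90220686-90220734, plus strand: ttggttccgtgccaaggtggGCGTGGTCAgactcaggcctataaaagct

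The matches began 134 bases before the start in Gclm, 133 in Prdx1, 92 in Txnrd1 and 56 in Sod1. Prdx1 held 2 matches to the AP-1 motif TGANTCA, 1 of which overlaps the ARE, and 7.81% of all promoters held one. No match to the ARE core was found in the windows of Cat, Gpx1, Nqo1 and Sod2, or in the other Txnrd1 windows. The GC box GGGCGG was in the windows of all 8 genes and in 35.7% of all promoters, and the E-box CACGTG was in none of the 8 and in 7.15% of all promoters. These are matches of letters only, and an ARE core outside the windows was not searched for. Hmox1 and Gclc had no entry.

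The levels of the 10 genes lay far apart, and their order was nearly the same in every sample. Over the 12 samples the mean level was 289.9 TPM for Sod1, 204.2 TPM for Prdx1, 123.3 TPM for Sod2 and 99.1 TPM for Cat. These 4 enzymes act directly on superoxide or hydrogen peroxide. Gpx1 followed at 47.4 TPM, Nqo1 at 31.7 TPM, Txnrd1 at 16.1 TPM and Gclm at 13.1 TPM. Hmox1 at 6.19 TPM and Gclc at 3.14 TPM were lowest. Sod1 was above Prdx1, and Prdx1 above Sod2, without overlap of their ranges. Sod2 ranged from 113.3 to 137.6 TPM and Cat from 85.4 to 115.2 TPM, so that these neighbours overlapped, yet Sod2 was the higher of the pair within all 12 samples. Gpx1 was above Nqo1 in 11 of 12 samples and Txnrd1 above Gclm in 10 of 12. Gclm was above Hmox1, and Hmox1 above Gclc, within each of the 12 samples.

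The genes also differed in how steady they were. The SD within groups, on the scale log2(TPM + 1), was 0.0952 for Sod2 and 0.0990 for Prdx1, against a median of 0.188 over all tested genes. Of all tested genes, 2.20% varied less than Sod2 and 2.95% less than Prdx1. Hmox1 had the widest spread of the 10 genes, with an SD of 0.515, at the 96.9th percentile of all tested genes. Nqo1, at 0.367, was at the 93.5th percentile, and Gclm, at 0.262, at the 81.0th. The group means of these 3 genes are therefore known least precisely.

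**Figure D1:**
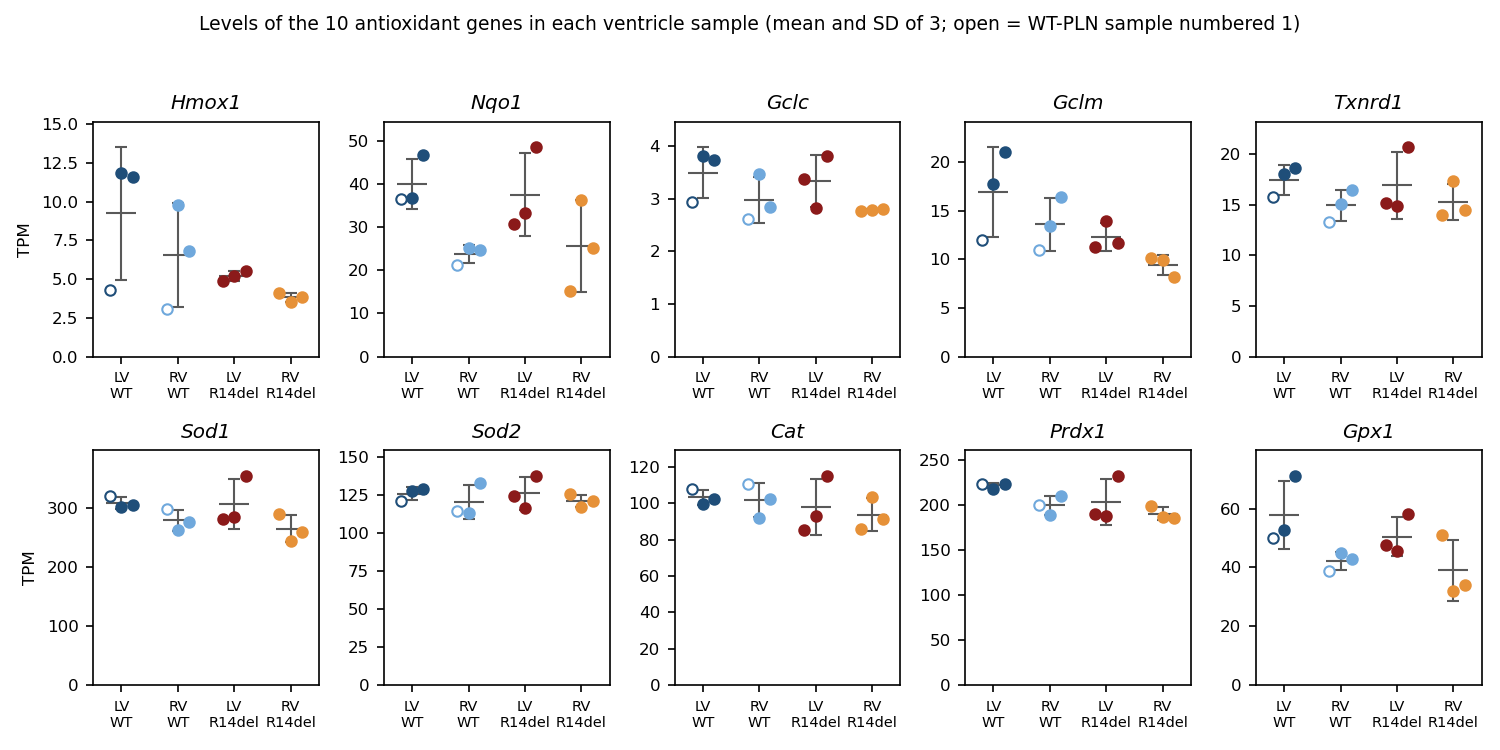
Levels of the 10 genes in TPM (vertical axes, starting at 0) in each of the 12 samples, by ventricle and genotype. Points are samples, bars are the mean and SD of 3, and open points are the WT-PLN samples numbered 1. Hmox1 in these samples, at 4.30 TPM in LV and 3.04 TPM in RV, sits well below the other WT-PLN samples, while Sod1, Sod2, Cat and Prdx1 stay within narrow ranges.

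The first question was whether R14del-PLN hearts express the antioxidant genes at another level than WT-PLN hearts of the same ventricle. In limma, with Benjamini-Hochberg adjustment over all 12526 genes, a gene was called when its adjusted p was 0.05 or less and its fold 1.5 or more. By this rule 0 of the 10 genes were called in LV and 0 of 10 in RV. Over all genes, 0.519% were called in LV (0.0958% higher and 0.423% lower) and 0.271% in RV (0.0719% higher and 0.200% lower). At an unadjusted p of at most 0.05, 0 of the 10 passed in LV, where 9.60% of all genes did, and 1 of the 10, Gclm, passed in RV, where 6.22% did. The lowest adjusted p among the 10 genes was 0.542 in LV and 0.676 in RV. The fitted difference was below 0 for all 10 genes in LV, beside 71.7% of all genes, and for 7 of the 10 in RV, beside 50.9%. The median log2 difference of the 10 genes was -0.10 in LV and -0.07 in RV, beside -0.09 and -0.003 over all tested genes. In whole tissue, fewer cells of a type and less RNA per cell cannot be told apart.

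For most of the genes the data limit how large a genotype difference could be. The 95% interval lay within a 1.5-fold change either way for 7 of the 10 genes in LV and 8 of 10 in RV, as it did for 73.6% and 76.9% of all genes. Hmox1 and Gclm were outside this band in both ventricles and Nqo1 in LV. A missed threshold in those genes leaves larger differences possible.

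**Figure D2:**
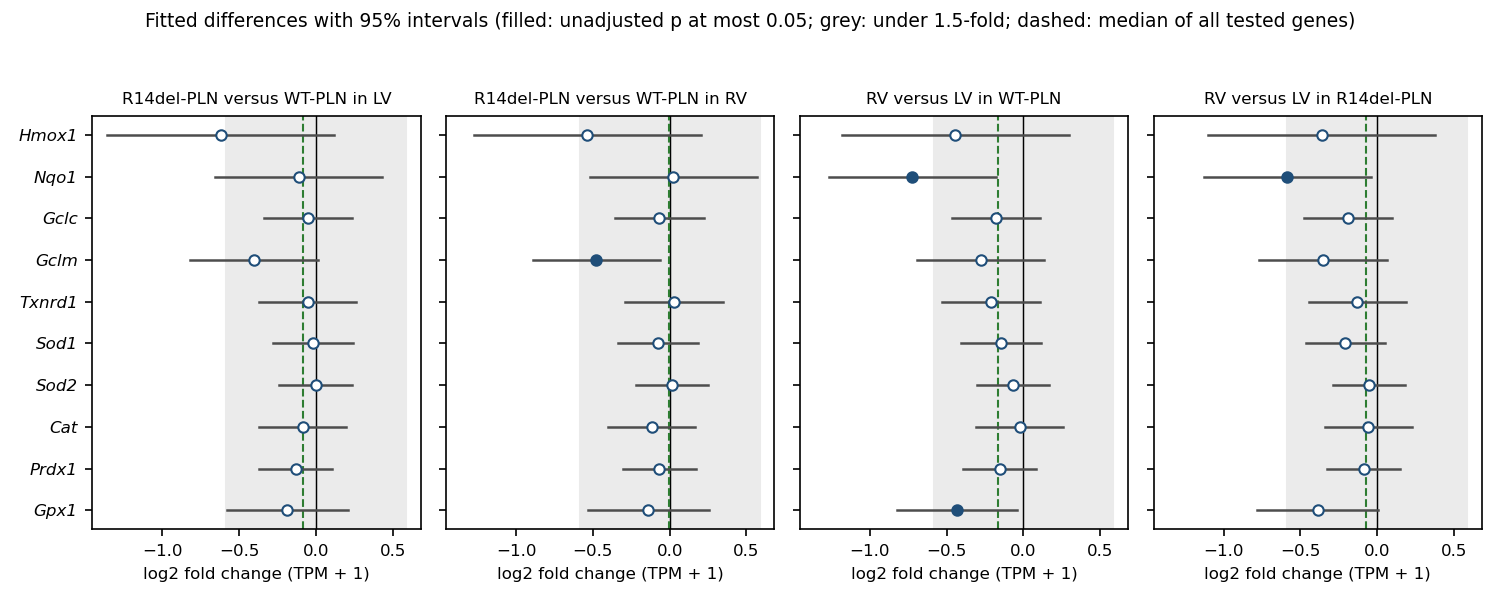
Fitted log2 differences of log2(TPM + 1) (horizontal axes) with 95% intervals for the 10 genes in the 4 comparisons. Filled points have an unadjusted p of at most 0.05, the grey band marks changes under 1.5-fold and the dashed line the median of all tested genes. Hmox1 has the widest intervals, and the intervals of Sod1, Sod2, Cat and Prdx1 stay inside the band in each panel.

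Hmox1 encodes the inducible haem oxygenase, which cleaves haem into biliverdin, iron and carbon monoxide (GRCm38 chromosome 8, 75093621 to 75100589). In LV it was at 4.30, 11.8 and 11.6 TPM in WT-PLN samples 1 to 3 and at 4.84, 5.19 and 5.51 TPM in R14del-PLN samples. In the RV it was at 3.04, 9.74 and 6.82 TPM in WT-PLN and at 4.07, 3.54 and 3.83 TPM in R14del-PLN samples. The mutant samples were tightly grouped in both ventricles, and the WT-PLN samples were split, with number 1 below every mutant sample of its ventricle and numbers 2 and 3 above them all. The means were 9.23 ± 4.28 TPM in LV WT-PLN and 5.18 ± 0.337 TPM in LV R14del-PLN (SD, n = 3 each). They were 6.53 ± 3.36 TPM in RV WT-PLN and 3.81 ± 0.267 TPM in RV R14del-PLN (SD, n = 3 each). The log2 difference was -0.62 ± 0.34 (SE) in LV, with an adjusted p of 0.610 in limma. In RV it was -0.54 ± 0.34, with an adjusted p of 0.991.

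The call for Hmox1 turned on the WT-PLN samples numbered 1, the same samples that were low in Y-linked genes. Without both of them, Hmox1 in TPM + 1 was 0.486-fold of WT-PLN in LV (log2 difference -1.04 ± 0.16, adjusted p = 0.00537 in limma). In RV it was 0.525-fold (-0.93 ± 0.16, adjusted p = 0.0149), and Hmox1 was called in both. That left 2 WT-PLN samples per ventricle. With only LV WT-PLN 1 left out, the adjusted p in LV was 0.120, and with only RV WT-PLN 1 left out, it was 0.437 in RV. Without LV WT-PLN 2 or 3, the LV difference was -0.40 or -0.42. Without RV WT-PLN 2, the RV difference was -0.23, and without the 3 samples above 100 TPM of Myl7 it was -0.42 in LV and -0.18 in RV. Over the 21 alternatives tried, the difference ranged from -1.04 to -0.40 in LV and from -0.93 to -0.18 in RV, below 0 in each. Another filter or a sample left out of the other ventricle cannot move this difference, so not all alternatives could turn it. The part of sex or of Myl7-rich tissue in this difference was not tested.

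**Figure D3:**
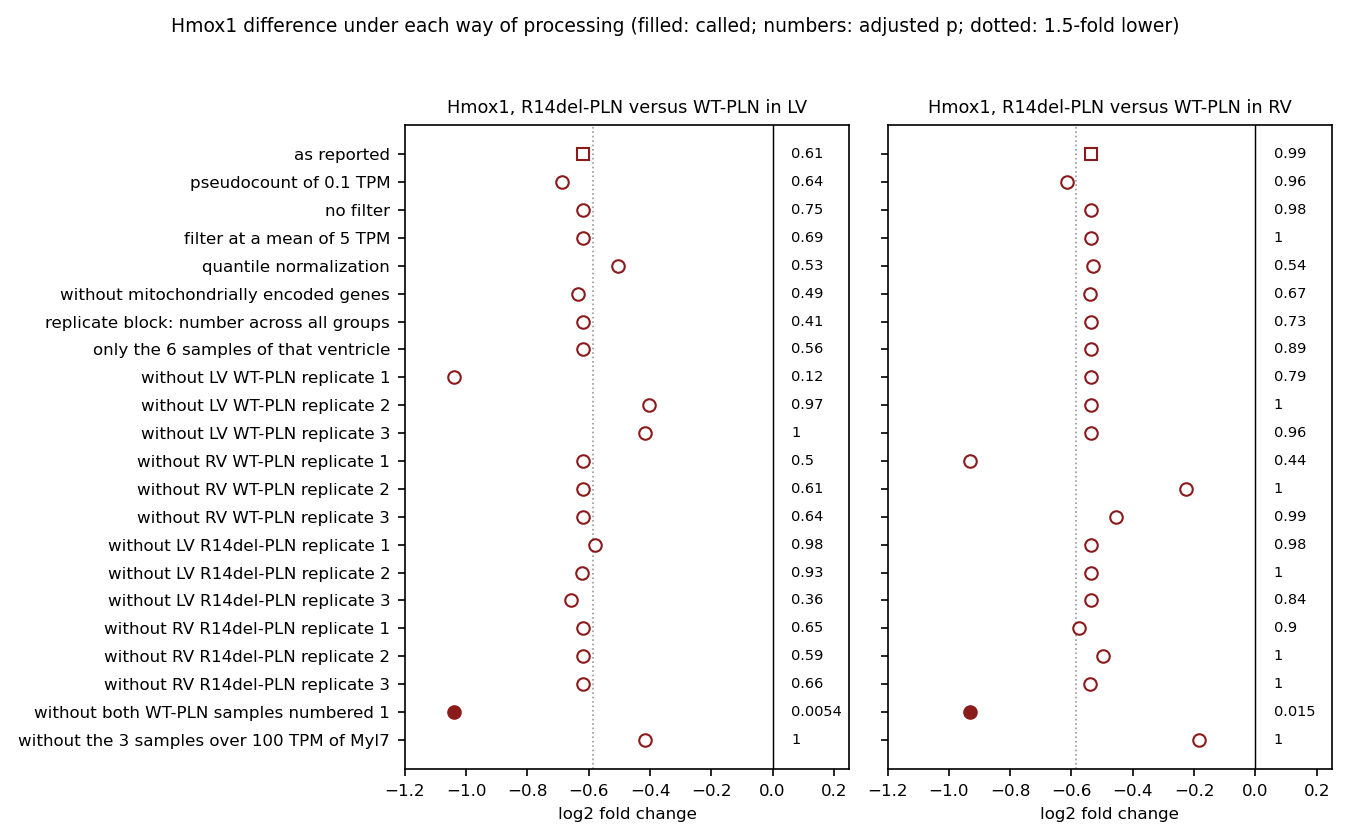
Log2 difference of Hmox1 between R14del-PLN and WT-PLN (horizontal axes) in LV and RV under each way of processing the values, listed on the vertical axis. Filled points are called, numbers are the adjusted p from limma, and the dotted line marks a 1.5-fold lower level. The only called points are those without both WT-PLN samples numbered 1, at -1.04 in LV and -0.93 in RV.

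Red cells, which carry haem, and macrophages, which recycle it, were followed beside Hmox1 through their markers. All 5 red cell markers (Hba-a1, Hba-a2, Hbb-bs, Hbb-bt and Alas2) had a fitted difference below 0 in both ventricles, 4 of 5 at an unadjusted p of at most 0.05 in LV and 3 of 5 in RV, and 0 were called. Their summed level was 2087 to 2316 TPM in LV WT-PLN, 1093 to 2142 TPM in LV R14del-PLN, 1461 to 1736 TPM in RV WT-PLN and 956.4 to 1368 TPM in RV R14del-PLN. The WT-PLN samples numbered 1, where Hmox1 was low, had red cell sums of 2316 TPM in LV and 1729 TPM in RV. Of 9 macrophage markers tested, 8 were below 0 in LV and 7 in RV, with sums of 161.0 to 241.9 TPM in LV WT-PLN and 154.5 to 195.9 TPM in LV R14del-PLN. In RV the macrophage sums were 139.1 to 164.4 TPM in WT-PLN and 119.6 to 212.3 TPM in R14del-PLN samples. Over all genes, 71.7% of differences were below 0 in LV and 50.9% in RV, and 9.60% and 6.22% had an unadjusted p of at most 0.05. Fibroblast markers were also below 0 for 7 of 7 in both ventricles, and endothelial markers for 3 of 7 in LV and 2 of 7 in RV. The part of these cells in the Hmox1 levels was not tested. Hmox2, the constitutive haem oxygenase, was at 29.1 to 40.5 TPM over all samples. Its log2 difference was -0.06 ± 0.13 in LV (adjusted p = 0.930) and 0.13 ± 0.13 in RV (adjusted p = 1), from limma.

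Gclm and Gclc encode the modifier and the catalytic subunit of glutamate-cysteine ligase, the rate-limiting enzyme of glutathione synthesis. Gclm lies on GRCm38 chromosome 3 from 122245557 to 122270732 and Gclc on chromosome 9 from 77754535 to 77794485. In the RV, Gclm was at 11.0, 13.4 and 16.4 TPM in WT-PLN samples and at 10.1, 9.92 and 8.22 TPM in R14del-PLN samples. Each mutant RV sample was below each WT-PLN RV sample. No other of the 10 genes separated the genotypes, so that 1 of 10 did in RV, beside 11.0% of all genes (5.79% lower), and 0 of 10 in LV, beside 11.0% (8.47% lower). In the LV, Gclm was at 12.0, 17.8 and 21.1 TPM in WT-PLN and at 11.2, 14.0 and 11.7 TPM in R14del-PLN samples, where the groups overlapped through WT-PLN 1. The log2 difference was -0.48 ± 0.19 in RV (adjusted p = 0.676) and -0.40 ± 0.19 in LV (adjusted p = 0.542), from limma. Without both WT-PLN samples numbered 1 it was -0.61 in RV and -0.62 in LV, with adjusted p-values of 0.167 and 0.0900. Without LV WT-PLN 3, the Myl7-rich LV sample, it was -0.23 in LV, and without the 3 Myl7-rich samples it was -0.51 in RV. Over the 21 alternatives it ranged from -0.62 to -0.23 in LV and from -0.61 to -0.34 in RV, and Gclm was called in none. As for Hmox1, some of these alternatives could not move the difference.

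Gclc stayed between 2.62 and 3.81 TPM in all samples. Its log2 difference was -0.05 in LV (95% interval -0.34 to 0.24) and -0.07 in RV (-0.35 to 0.22), with adjusted p-values of 0.942 and 1. The ratio of Gclm to Gclc, chosen after the values were seen, was 4.19, 3.88 and 5.80 in RV WT-PLN and 3.67, 3.57 and 2.93 in RV R14del-PLN samples. The groups did not overlap, and the exact two-sided permutation p was 0.1, the smallest that 3 against 3 samples can give (0.4 after Benjamini-Hochberg adjustment over 12 such ratio tests). In LV the mean ratio was 4.80 ± 0.797 for WT-PLN and 3.79 ± 1.02 for R14del-PLN samples (SD, n = 3 each), with overlap and an exact permutation p of 0.3.

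Nqo1 encodes NAD(P)H quinone dehydrogenase 1, which reduces quinones with 2 electrons and so avoids semiquinone radicals (chromosome 8, 107388225 to 107403206). In LV it was at 36.6, 36.8 and 46.8 TPM in WT-PLN and at 30.7, 33.3 and 48.6 TPM in R14del-PLN samples. In RV it was at 21.3, 25.2 and 24.8 TPM in WT-PLN and at 15.2, 36.4 and 25.2 TPM in R14del-PLN samples. The genotypes overlapped in both ventricles, and the mutant RV samples spanned the widest range. The log2 difference between genotypes was -0.11 in LV (95% interval -0.66 to 0.43, adjusted p = 0.932) and 0.02 in RV (-0.52 to 0.57, adjusted p = 1). Its sign depended on the processing in both ventricles, and without the 3 samples above 100 TPM of Myl7 it was 0.0023 in LV and -0.22 in RV.

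The thioredoxin arm was represented by Txnrd1, the cytosolic thioredoxin reductase (chromosome 10, 82833951 to 82897712), and Prdx1, a peroxiredoxin that removes hydrogen peroxide with electrons from thioredoxin (chromosome 4, 116685544 to 116700822). Txnrd1 ranged from 13.3 to 20.7 TPM and Prdx1 from 185.4 to 233.1 TPM. Both were highest in LV R14del-PLN 3, the sample with the lowest mitochondrial share, as were Sod1, Sod2, Cat and Nqo1. The log2 genotype difference of Txnrd1 was -0.05 in LV (95% interval -0.37 to 0.26) and 0.03 in RV (-0.29 to 0.35). For Prdx1 it was -0.13 in LV (-0.37 to 0.11) and -0.07 in RV (-0.30 to 0.17). The adjusted p-values were between 0.777 and 1. In LV, Prdx1 was at 223.9, 218.6 and 224.1 TPM in WT-PLN and 190.6, 187.8 and 233.1 TPM in R14del-PLN samples, so that 2 mutant samples were below and 1 above the WT-PLN range.

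Sod1, the copper and zinc superoxide dismutase of the cytosol (chromosome 16, 90220754 to 90226329), and Sod2, the manganese enzyme of the mitochondrial matrix (chromosome 17, 13006846 to 13040063), had genotype intervals that stayed close to 0 in both ventricles. Sod1 was at 309.0 ± 9.99 TPM in LV WT-PLN and 306.7 ± 41.9 TPM in LV R14del-PLN (SD, n = 3 each). In RV the levels were 279.3 ± 18.0 TPM for WT-PLN and 264.8 ± 23.0 TPM for R14del-PLN samples. Sod2 was at 125.8 ± 4.27 and 126.0 ± 10.9 TPM in LV, and at 120.2 ± 11.1 and 121.1 ± 4.06 TPM in RV, for WT-PLN and R14del-PLN in that order. The 95% intervals of the log2 difference were -0.28 to 0.24 in LV and -0.34 to 0.18 in RV for Sod1, and -0.24 to 0.23 and -0.22 to 0.25 for Sod2. Their adjusted p-values were between 0.978 and 1.

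Hydrogen peroxide is removed by catalase, the peroxisomal enzyme encoded by Cat (chromosome 2, 103453849 to 103485160), and by glutathione peroxidase 1, the selenoenzyme encoded by Gpx1 (chromosome 9, 108338903 to 108340343). Cat ranged from 85.4 to 115.2 TPM, and both of these extremes were LV R14del-PLN samples. Its log2 genotype difference was -0.09 in LV (95% interval -0.37 to 0.20) and -0.12 in RV (-0.40 to 0.17). Gpx1 was at 49.9, 52.6 and 71.3 TPM in LV WT-PLN and at 47.8, 45.6 and 58.0 TPM in LV R14del-PLN samples. In RV it was at 38.9, 44.9 and 42.8 TPM in WT-PLN and at 50.9, 32.1 and 33.9 TPM in R14del-PLN samples. Neither ventricle separated the genotypes for Gpx1, with a log2 difference of -0.18 in LV (adjusted p = 0.819) and -0.14 in RV (adjusted p = 1). Without the Myl7-rich samples the difference was -0.03 in LV and 0.03 in RV.

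The second question was whether RV and LV differ within a genotype. In limma, 0 of the 10 genes were called in WT-PLN hearts and 0 of 10 in the mutant hearts, where 0.00% of all tested genes were called in either. At an unadjusted p of at most 0.05, 2 of the 10 genes passed in WT-PLN (14.5% of all genes) and 1 of 10 in R14del-PLN (6.57%), each lower in RV. All 10 genes had a fitted difference below 0 in both genotypes, as did 85.9% of all genes in WT-PLN hearts and 70.3% in the mutant hearts. The groups did not overlap for 4 of the 10 genes in WT-PLN hearts, Nqo1, Gpx1, Sod1 and Prdx1, beside 26.1% of all genes (25.2% lower). In R14del-PLN hearts they did not overlap for 3 of the 10, Hmox1, Gclm and Gclc, beside 9.98% (8.72% lower), and all 7 were lower in RV. The 95% interval lay within a 1.5-fold change for 6 of the 10 genes in each genotype, beside 65.1% of all genes for WT-PLN and 77.9% for R14del-PLN hearts. The 10 genes had a median log2 difference of -0.19 in WT-PLN hearts and -0.20 in R14del-PLN hearts, beside -0.17 and -0.08 over all genes. Quantile normalization moved the all-gene median in WT-PLN from -0.17 to 0.005. Leaving out the mitochondrially encoded genes moved it to -0.06. Under either scaling Sod2 and Cat had differences above 0 in both genotypes, so that not all 10 genes were below 0.

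Nqo1 had the lowest p of the 10 genes in this comparison. In WT-PLN hearts its RV samples, at 21.3 to 25.2 TPM, were all below its LV samples, at 36.6 to 46.8 TPM. The log2 difference was -0.72 ± 0.25 (adjusted p = 0.285), a fold of 0.606 in TPM + 1. In R14del-PLN hearts it was -0.59 ± 0.25 (adjusted p = 0.747), and RV R14del-PLN 2, at 36.4 TPM, was above the 2 lower LV samples. Without the 3 samples above 100 TPM of Myl7, RV R14del-PLN 2 among them, it was -0.87 (adjusted p = 0.519). Over the alternatives the difference stayed below 0, from -0.78 to -0.52 for WT-PLN and from -0.87 to -0.27 for R14del-PLN samples. Here another filter or a sample left out of the other genotype could not move it. Gpx1 was the other gene at an unadjusted p of at most 0.05 in WT-PLN hearts, where each RV sample was below each LV sample. Its log2 difference was -0.43 ± 0.18 (adjusted p = 0.312) in WT-PLN and -0.39 ± 0.18 (adjusted p = 0.762) in R14del-PLN hearts.

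Samples of LV and RV with 1 number deviated together in WT-PLN hearts, so the difference is also given by number. Nqo1 in RV minus LV, on the log2(TPM + 1) scale, was -0.75, -0.53 and -0.89 for WT-PLN numbers 1 to 3 and -0.96, 0.13 and -0.92 for R14del-PLN numbers. Hmox1 was lower in RV for each number of both genotypes, with differences of -0.39, -0.25 and -0.69 for WT-PLN and -0.20, -0.45 and -0.43 for R14del-PLN numbers. Gclc and Gclm were also lower in RV for each number of both genotypes. Cat was lower in RV for 1 of 3 numbers in each genotype. With LV and RV of one number as a pair, limma called 12 of all genes in WT-PLN hearts and 0 in the mutant hearts, and 0 of the 10 genes in either. In WT-PLN hearts the adjusted p was then 0.147 for Nqo1 and 0.190 for Hmox1, and in the mutant hearts 0.634 and 0.668. In this paired fit Nqo1, Gpx1 and Hmox1 had an unadjusted p of at most 0.05 in both genotypes, as did Gclm in R14del-PLN hearts. The share of all genes at this p in the paired fit is not given, so no excess among the 10 genes can be read from it.

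Markers of other cell types were read in the same comparison. All 7 endothelial markers had a fitted difference below 0 in RV of both genotypes, 5 of 7 at an unadjusted p of at most 0.05 in WT-PLN and 2 of 7 in R14del-PLN, and 0 were called. In WT-PLN hearts their summed level was 156.5 to 198.2 TPM in LV and 116.1 to 133.7 TPM in RV. In R14del-PLN hearts it was 153.7 to 195.7 TPM in LV and 125.0 to 155.8 TPM in RV. All 5 red cell markers were below 0 in both genotypes, 1 of 5 at this p in WT-PLN and 2 of 5 in R14del-PLN. Smooth muscle and pericyte markers were below 0 for 6 of 6 in WT-PLN (2 at this p) and 4 of 6 in R14del-PLN (0 at this p), and their summed level in WT-PLN hearts was 182.2 to 390.9 TPM in LV and 156.2 to 196.6 TPM in RV. In R14del-PLN hearts that sum was 159.3 to 253.0 TPM in LV and 161.7 to 213.1 TPM in RV. No red cell, smooth muscle or pericyte marker was called, and over all genes 85.9% and 70.3% of differences were below 0. Their part in the differences of Nqo1 and Gpx1 was not tested.

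The third question was whether the genotype difference itself differs between ventricles. The interaction was called for 0 of the 10 genes and 0.00% of all genes in limma, and at an unadjusted p of at most 0.05 for 0 of the 10 and 1.01% of all genes. The term was below 0 for 4 of the 10 genes, beside 25.7% of all genes, and its interval lay within a 1.5-fold change for 6 of the 10, beside 49.4%. It lay between -0.08 for Gclm and 0.14 for Nqo1, with standard errors of 0.15 (Sod2) to 0.48 (Hmox1). For Hmox1 the 95% interval of the interaction was -0.96 to 1.13, which spans more than a 1.5-fold difference in either direction. With LV and RV of one number as a pair, the standard error fell to 0.20 for Hmox1 and rose to 0.20 for Sod2.

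The other genes of the pathway were read from 7 lists holding 81 genes, of which 80 were tested. They were compiled with earlier results of these data known. In LV, 0 of the 80 were called higher and 1, Chac1, was called lower in R14del-PLN hearts, beside 0.0958% and 0.423% of all genes. In RV, 0 were called in either direction. At an unadjusted p of at most 0.05, 1 was higher and 5 lower in LV, and 3 were higher and 5 lower in RV, where 9.60% and 6.22% of all genes passed.

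Chac1 encodes an enzyme that degrades glutathione. It was at 3.01, 5.41 and 4.98 TPM in LV WT-PLN and at 0.931, 0.909 and 1.75 TPM in LV R14del-PLN samples, with no overlap. The log2 difference was -1.31 ± 0.21 (adjusted p = 0.0170 in limma), a fold of 0.404 in TPM + 1. At such low levels this understates the change in TPM. In RV it was at 2.43, 3.66 and 1.84 TPM in WT-PLN and at 0.788, 0.764 and 0.961 TPM in R14del-PLN samples, also without overlap. The RV log2 difference was -0.96 ± 0.21, with an adjusted p of 0.104. Of all genes, 8.47% in LV and 5.79% in RV were lower without overlap. Under quantile normalization the RV difference was -0.99 (adjusted p = 0.0475 in limma), and Chac1 was called there as well. Chac1 was listed with the knowledge that the study names it, so its call is not independent evidence. At the same adjusted p and fold limits, the study's own fit in CLC gave Chac1 as lower in both ventricles. That fit also gave more changed genes in each ventricle than were called here. It was called in LV in 8 of 12 fits with 1 sample left out, but leaving out an RV sample cannot change the LV difference. The call was lost without LV WT-PLN 2 or 3 or LV R14del-PLN 1 or 2, with adjusted p-values of up to 0.112.

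Among the 10 regulators of the KEAP1-NRF2 system, 0 were called and 2 had an unadjusted p of at most 0.05 in both ventricles, both lower in R14del-PLN hearts. They were Maff and Mafk, small MAF proteins that pair with NRF2 or BACH1 on DNA. Maff was at 3.57, 7.22 and 6.70 TPM in LV WT-PLN and at 1.94, 1.83 and 2.37 TPM in LV R14del-PLN samples. In RV it was at 2.45, 5.90 and 4.22 TPM in WT-PLN and at 1.52, 1.53 and 1.66 TPM in R14del-PLN samples. Each mutant sample was below each WT-PLN sample of its ventricle, as for 8.47% of all genes in LV and 5.79% in RV. WT-PLN 1 was the lowest WT-PLN sample, as it was for Hmox1. The log2 difference was -1.12 ± 0.24 in LV (adjusted p = 0.0714) and -0.96 ± 0.24 in RV (adjusted p = 0.182). Without both WT-PLN samples numbered 1 it was -1.39 in LV (adjusted p = 0.000745) and -1.22 in RV (adjusted p = 0.00247), and Maff was called in both. It was also called in LV with the replicate number as a block (adjusted p = 0.0229 in limma). With 1 sample left out at a time it was called in 3 of 12 fits in LV, those without WT-PLN 1 of either ventricle or RV WT-PLN 2, and in 1 of 12 in RV, that without RV WT-PLN 1. Mafk differed by -0.54 in LV (adjusted p = 0.290) and -0.57 in RV (adjusted p = 0.389). Nfe2l2, which encodes NRF2, was at 16.2 to 26.0 TPM in all samples, with differences of -0.25 and -0.17 (adjusted p = 0.625 and 1), and Keap1 at 11.7 to 17.5 TPM, with differences of -0.05 and -0.10 (adjusted p = 0.942 and 1).

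**Figure D4:**
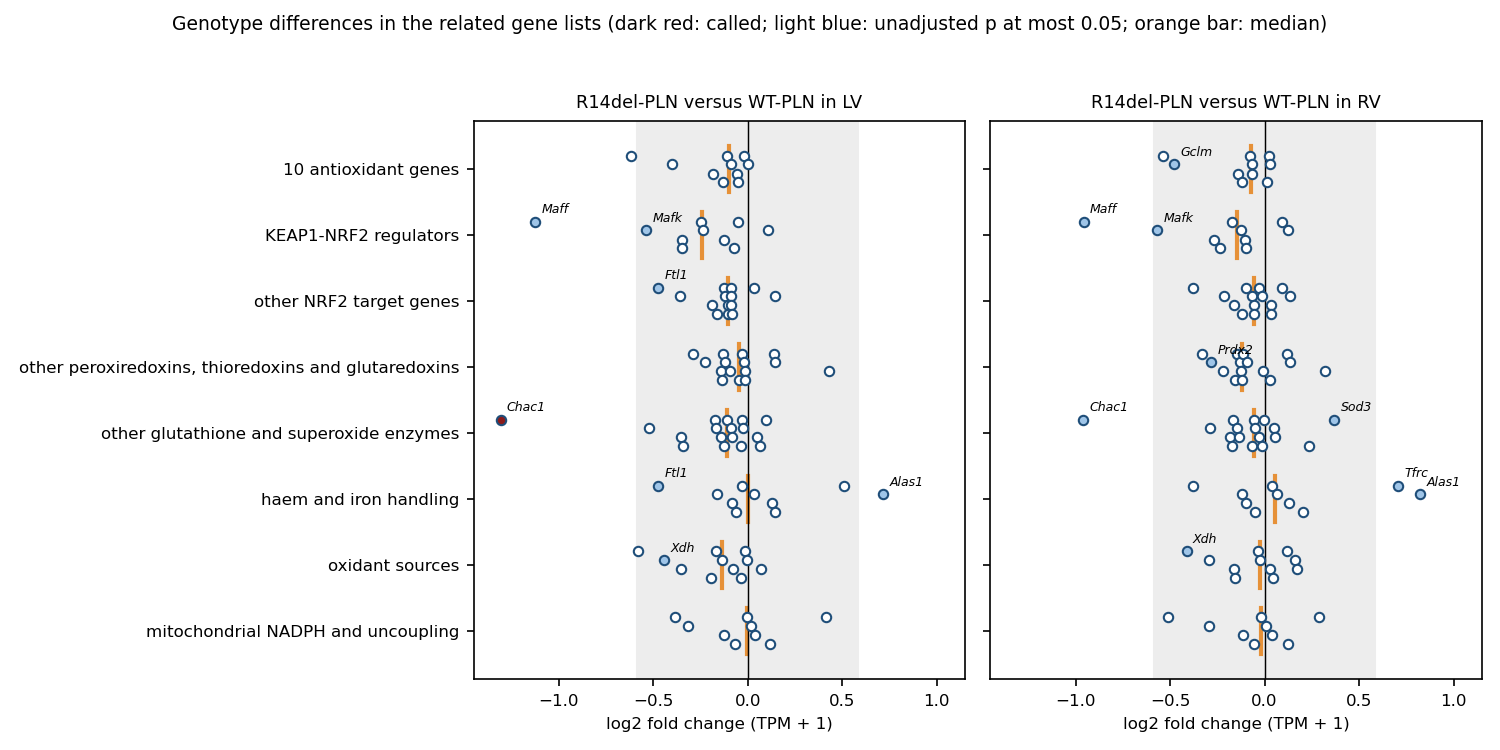
Fitted log2 differences of log2(TPM + 1) between R14del-PLN and WT-PLN (horizontal axes) for the 10 genes and the 7 related lists in LV and RV. Each point is a gene, dark red is called, light blue has an unadjusted p of at most 0.05, and orange bars are list medians. Chac1 in LV is the only called gene, and Maff lies farthest to the left among the regulators in both ventricles.

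The 14 other NRF2 targets tested had 0 calls and a median log2 difference of -0.10 in LV and -0.06 in RV. Ftl1, the ferritin light chain, had the lowest p of this list in both. It was at 313.0, 484.7 and 488.9 TPM in LV WT-PLN and at 307.8, 276.8 and 323.4 TPM in LV R14del-PLN samples. WT-PLN 1 fell among the mutant samples here too. The differences were -0.48 ± 0.20 in LV (adjusted p = 0.468) and -0.38 ± 0.20 in RV (adjusted p = 0.904). Ephx1, an epoxide hydrolase, differed by -0.36 in LV (adjusted p = 0.540), and Osgin1 by -0.21 in RV (adjusted p = 1). Slc7a11, the cystine transporter, did not pass the filter, at 0.0806 TPM on average.

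In haem and iron handling, Alas1, the first enzyme of haem synthesis outside red cells, was on the other side of 0. It was at 123.5, 71.9 and 89.7 TPM in LV WT-PLN and at 132.3, 129.7 and 209.4 TPM in LV R14del-PLN samples, and in RV at 69.0 to 104.7 and 137.9 to 198.2 TPM. The groups did not overlap in either ventricle, as for 11.0% of all genes in each. Alas1 was named for its low p, so this separation adds no evidence of its own. The log2 difference was 0.72 ± 0.24 in LV (adjusted p = 0.294) and 0.82 ± 0.24 in RV (adjusted p = 0.302), and it was not called. Tfrc, the transferrin receptor, differed by 0.71 ± 0.25 in RV (adjusted p = 0.555).

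Of 11 oxidant sources, 0 were called. Xdh, xanthine dehydrogenase, had the lowest p in both ventricles, at -0.44 ± 0.12 in LV (adjusted p = 0.193) and -0.41 ± 0.12 in RV (adjusted p = 0.325). The mutant samples, at 16.0 to 23.0 TPM, were below the WT-PLN samples of their ventricle, at 20.5 to 29.6 TPM. The same held for 8.47% of all genes in LV and 5.79% in RV. Nox4, an oxidant-forming oxidase, was at 3.76 TPM in LV WT-PLN 3 and at 0.386 to 0.777 TPM in the other samples. That LV sample is one of the 3 with abundant Myl7.

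The other peroxiredoxins, thioredoxins and glutaredoxins had 0 of 15 genes called. Glrx, glutaredoxin, differed by 0.43 in LV (adjusted p = 0.574) and 0.32 in RV (adjusted p = 0.997). Txnrd2, the mitochondrial thioredoxin reductase, differed by -0.23 in LV (adjusted p = 0.624) and Prdx2 by -0.28 in RV (adjusted p = 0.792). Gpx7, a peroxidase of the endoplasmic reticulum, differed by -0.35 in LV (adjusted p = 0.530). Sod3, the extracellular superoxide dismutase, had the lowest interaction p of the lists (adjusted p = 1.00). Its difference between RV and LV of WT-PLN hearts was -0.64 ± 0.17 (adjusted p = 0.217), and that between genotypes in RV was 0.37 ± 0.17 (adjusted p = 0.792). The 9 genes of mitochondrial NADPH supply and uncoupling had 0 calls and medians of -0.002 in LV and -0.02 in RV. Mthfd2, a mitochondrial folate enzyme, differed by -0.32 in LV (adjusted p = 0.620) and -0.29 in RV, the uncoupling protein Ucp3 by 0.41 in LV (adjusted p = 0.737) and Ucp2 by -0.51 in RV (adjusted p = 0.947).

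Between ventricles, 0 of the 80 related genes were called in either genotype. At an unadjusted p of at most 0.05, 2 were higher and 16 lower in RV of WT-PLN hearts, and 0 were higher and 10 lower in R14del-PLN hearts, where 14.5% and 6.57% of all genes passed. Gpx4, the lipid hydroperoxide peroxidase, was at 399.6 to 450.8 TPM in RV and 530.2 to 594.9 TPM in LV of WT-PLN hearts, with a log2 difference of -0.43 ± 0.11 (adjusted p = 0.217). In R14del-PLN hearts it was at 362.4 to 396.3 TPM in RV and 488.5 to 598.8 TPM in LV, with a difference of -0.46 ± 0.11 (adjusted p = 0.711). The groups did not overlap in either genotype. Rbx1, a subunit of the ligase that degrades NRF2, differed by -0.28 in both genotypes, and Fth1, the ferritin heavy chain, by -0.30 in WT-PLN hearts and by -0.23 in the mutant hearts. Txn1, thioredoxin itself, was at -0.28 in each (adjusted p = 0.311 and 0.745). Maob, a monoamine oxidase, and Slc40a1, the iron exporter, were the 2 genes with higher RV values in WT-PLN hearts at this p, at 0.39 (adjusted p = 0.297) and 0.48 (adjusted p = 0.300). In R14del-PLN hearts Glrx5 differed by -0.46, Prdx2 by -0.39, Idh2 by -0.33, Mgst3 by -0.30 and Cyba by -0.34, with adjusted p-values of 0.711 to 0.795.

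Across the 12 samples, Hmox1 and Gclm followed each other with a Pearson r of 0.856 on the log2 scale (0.749 once group means were removed). Hmox1 and Gclc had an r of 0.782, while Hmox1 and Cat had -0.04. Among all tested genes, Gclm was most like Arhgap23 (r = 0.956), Cd14 (0.952) and Tnfaip6 (0.945). Nqo1 was most like Adprhl1 (0.977), Hspb7 (0.975) and Mybpc2 (0.969). Hmox1, added to this comparison after its values were seen, was most like Maml1 (0.989), Tubb2a (0.955) and Litaf (0.952). These correlations are descriptions over 12 samples that share groups, ventricles of like number and the scaling to a fixed total.

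The 4 genes with an ARE match, shown above by their letters, were set beside the 4 without one in their windows. Their log2 genotype differences in LV were -0.40 for Gclm, -0.13 for Prdx1, -0.05 for Txnrd1 and -0.02 for Sod1, and those of the 4 without a match lay between -0.18 for Gpx1 and -0.001 for Sod2. Over all 9311 tested genes with a promoter, the 1593 with a match had a median of -0.09 in LV and -0.01 in RV, and the rest -0.08 and -0.001.

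Reads shared with other loci are a limit for some of the genes. Prdx1 has 2 processed pseudogenes, Gm21399 and Gm7204, and Sod1 has 1, Gm8566, at 97.5% to 98.3% identity, and these were listed at 0.144 TPM or less. With their values added to the parent gene, the log2 differences were the same to 2 decimals in the 4 comparisons. Gclm overlaps Gm6061 and Txnrd1 overlaps Eid3 on the same strand, at means of 0.275 and 0.0303 TPM, and Sod1 overlaps Scaf4 on the opposite strand, at 3.76 TPM.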

How the data were processed

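RNA-seq of 12 mouse ventricle samples was analysed from 1 table per sample. The authors prepared stranded poly(A) libraries, mapped reads to GRCm38 in CLC Genomics Workbench and deposited values in TPM. The program, annotation and strand setting behind the TPM are not given in the sources used here. Each sample sums to 1000000 TPM, so depth is unknown and counting error cannot be given. Groups came from the labels. The study gives 3 mice per group, and the labels do not say which samples share a mouse, so p-values measure the spread between these samples.

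Values were tested as log2(TPM + 1), a scale that understates changes of low genes, with limma 3.58.1 in R 4.3.3 (trended empirical Bayes, 4 group means, 8 residual degrees of freedom), for 12526 genes whose mean over the 12 samples reached 0.5 TPM. All p-values outside the permutation tests are from limma, and ± after a log2 difference is its SE. Symbols of 97.9% of tested genes matched the GRCm38 annotation, and copies of at least 95% identity were sought with BLAST 2.17.0. The 10 genes and the lists were chosen with earlier results of these data known. From each list, called genes and the 2 with the smallest p in each comparison are named. LV and RV samples with the same number deviated together in WT-PLN hearts (mean r 0.478, lowest 0.321) but less clearly in R14del-PLN hearts (mean 0.224, lowest 0.0542). That pairing comes from the values, since the labels do not state it. Leaving out the 3 samples rich in Myl7 was chosen after seeing the data.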

Additional observations from a re-analysis of the deposited data

How the results depend on the processing

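TPM carry no depth. With 3 samples per group, the intervals of the unpaired fit leave differences above 1.5-fold possible for Hmox1 and Gclm in each comparison. They do so for Nqo1 in all but genotype in RV, and for Gpx1 between ventricles and in the interaction. The count of called genes among the 10 was 0 in every comparison and alternative except without both WT-PLN samples numbered 1, where it was 1 (Hmox1) in LV and 1 in RV. Over all genes, calls in LV went from 65 to 230 there, 103 under quantile normalization, 119 with the replicate number as a block, 22 with no filter and 19 to 153 with 1 sample left out. In RV they went from 34 to 88, 86, 62, 17 and 14 to 48 in the same order. Without the Myl7-rich samples they were 45 and 15, and without mitochondrially encoded genes 95 and 73. Between genotypes, same-numbered samples had a mean r of 0.0756 in LV (lowest -0.0209) and 0.138 in RV (lowest 0.0610). Samples of unlike number had means of -0.0377 in LV and -0.0700 in RV. Neither replicate block changed a call among the 10 genes, while Maff of the related genes gained one in LV. Signs turned for differences near 0, and the cause was not tested. In genotype in LV, quantile normalization gave Nqo1 0.0067, Gclc 0.062, Txnrd1 0.057, Sod1 0.092, Sod2 0.10 and Cat 0.016. Sod2 was 0.016 without mitochondrially encoded genes, Sod1 0.0070 without WT-PLN 1, and Nqo1 0.0023 and Sod2 0.016 without Myl7-rich samples. In genotype in RV, Nqo1, Txnrd1 and Sod2 were -0.049, -0.046 and -0.019 without WT-PLN 1, and Nqo1, Gclc, Txnrd1, Sod2 and Gpx1 -0.22, 0.022, -0.050, -0.0027 and 0.027 without Myl7-rich samples. Prdx1 was 0.020 under quantile normalization. In RV versus LV of WT-PLN hearts, quantile normalization gave Sod1 0.084, Sod2 0.13, Cat 0.16 and Prdx1 0.068. Without mitochondrially encoded genes Sod2 was 0.068 and Cat 0.11, and without Myl7-rich samples Cat was 0.040. In R14del-PLN hearts quantile normalization gave Sod2 0.10, Cat 0.085 and Prdx1 0.11, and leaving out mitochondrially encoded genes Txnrd1 0.027, Sod2 0.11, Cat 0.11 and Prdx1 0.075. Leaving out 1 sample at a time turned the sign of 30 values and kept that of 450. Many of those 450 could not turn, since a sample of a group outside the comparison cannot move its difference. The ranges in genotype in LV were -0.31 to 0.014 for Nqo1, -0.14 to 0.035 for Gclc, -0.20 to 0.023 for Txnrd1, -0.13 to 0.040 for Sod1, -0.066 to 0.056 for Sod2 and -0.21 to 0.0056 for Cat. In RV they were -0.26 to 0.34 for Nqo1, -0.13 to 0.022 for Gclc, -0.060 to 0.095 for Txnrd1 and -0.025 to 0.089 for Sod2. Between ventricles they were -0.088 to 0.046 for Cat of WT-PLN hearts, and -0.22 to 0.017 for Txnrd1, -0.11 to 0.012 for Sod2, -0.15 to 0.065 for Cat and -0.14 to 0.011 for Prdx1 of R14del-PLN hearts.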
